A study of Homo sapiens with 10 samples.

Results

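Metallothioneins were followed as a list of 8 gene symbols, MT1A, MT1E, MT1F, MT1G, MT1H, MT1M, MT1X and MT2A. The list has no threshold on measured values, but it was drawn up with earlier results of these data known. Of these 8, 7 had a named probe set among the 17687 genes of the array, and MT1A was not analysed here. RNA was measured on 10 single-colour arrays of human myeloid cell lines, in which 1 control array and 1 array after OR21 (OR-2100, which the series calls a hypomethylating agent) came from each of HL60, MDSL, SKM1 and K562. MDSL and SKM1 are labelled as lines of myelodysplastic syndrome, K562 as chronic and HL60 as acute myeloid leukaemia. HL60 and K562 received 500 nM and MDSL and SKM1 received 100 nM, for 96 hours. The last 2 arrays came from untreated HL60 derivatives labelled AZA resistant and OR21 resistant, and the HL60 control is labelled parental. MDSL was kept in medium with interleukin-3 and 2-mercaptoethanol, and HL60 in medium with more serum than that of SKM1. No label says whether a derivative was a clone or whether any array came from a separate culture.

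Metallothioneins are small, cysteine-rich proteins that bind zinc and copper and buffer their free concentration in the cell. When zinc or cadmium enters a cell, the zinc-sensing transcription factor MTF1 binds short metal response elements in the promoters of metallothionein genes and of the zinc exporter gene SLC30A1. Glucocorticoids and oxidative stress are further textbook inducers, and several members are known to be silenced by promoter methylation in tumours. The human MT1 and MT2A genes lie side by side on chromosome 16 and are very alike in sequence, so a probe set of 1 member may also catch RNA of another.

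The promoters of MT2A, MT1H and MT1X are shown because metal response elements and CpG sites are the 2 features through which this family is usually discussed. Each is the 250 bases before the RefSeq start site (GRCh38.p14, plus strand), at chr16:56608334-56608583 for MT2A, chr16:56669564-56669813 for MT1H and chr16:56682220-56682469 for MT1X. Capitals mark the letters of the metal response element core, searched as TGCACNC and TGCGCNC on both strands.
MT2A: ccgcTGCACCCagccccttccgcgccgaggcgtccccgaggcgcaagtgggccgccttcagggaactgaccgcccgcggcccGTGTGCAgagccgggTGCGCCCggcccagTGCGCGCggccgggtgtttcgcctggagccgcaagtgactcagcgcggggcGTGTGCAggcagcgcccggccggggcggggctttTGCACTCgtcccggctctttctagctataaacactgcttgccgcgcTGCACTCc
MT1H: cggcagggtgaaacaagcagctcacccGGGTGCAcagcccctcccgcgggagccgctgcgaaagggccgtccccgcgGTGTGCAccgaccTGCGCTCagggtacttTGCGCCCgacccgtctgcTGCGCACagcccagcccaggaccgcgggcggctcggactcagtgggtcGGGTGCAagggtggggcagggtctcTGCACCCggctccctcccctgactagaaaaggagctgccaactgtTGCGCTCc
MT1X: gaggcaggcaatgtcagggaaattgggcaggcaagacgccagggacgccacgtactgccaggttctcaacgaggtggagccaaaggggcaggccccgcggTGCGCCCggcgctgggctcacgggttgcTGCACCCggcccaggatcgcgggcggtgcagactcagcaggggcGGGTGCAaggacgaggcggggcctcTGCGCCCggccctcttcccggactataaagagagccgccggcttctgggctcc

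The core letters occurred 7 times in the MT2A window, 8 times in that of MT1H and 4 times in that of MT1X, and no 2 matches overlapped. Of 35116 RefSeq promoter windows of the same length, 24.8% held at least 1 match, 0.0313% held 7 or more, 0.0171% held 8 or more and 0.370% held 4 or more. MT1H and MT1X each had matches starting 78 and 53 bases before the start site, and MT2A and MT1H each had a match starting 8 bases before it. MT2A held 32 CpG sites and MT1H and MT1X held 22 each, against a median of 11 over all windows. Of all windows 28.0% held 22 or more CpG sites and 9.52% held 32 or more. Methylation was not measured in these samples. A match is a description of letters and does not show that a factor binds there. The promoter table gave 3 of the 8 members, and MT1A, MT1E, MT1F, MT1G and MT1M were not analysed for their promoters here.

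The deposited intensities were put on the log2 scale, so that 1 unit is a 2-fold difference. The 10 arrays had gene medians of 6.63 to 7.05 log2 and background probe medians of 4.98 to 5.43. Some listed markers set a line apart, and others of the same lists did not. The progenitor markers KIT and FLT3 stood at 12.55 and 10.31 log2 in control SKM1 and at 12.54 and 8.84 in MDSL, while IL3RA was at 5.91 and 12.01. In control MDSL the granulocytic AZU1 was at 13.83 and the erythroid GATA1 at 10.99. The granulocytic CTSG was at 11.56 in MDSL and 7.80 in SKM1. The embryonic globin HBZ stood at 13.68 log2 in control K562 against 3.50 to 3.94 in the other controls, MPO, the peroxidase of promyelocytes, at 17.01 in HL60 and 17.08 in SKM1, and the progenitor antigen CD34 at 14.68 in MDSL. The epithelial adhesion gene EPCAM was at 12.46 log2 in control SKM1 and 13.31 in control K562, and of the 5 measured lymphoid markers only MS4A1 was under background in all 4 controls. CD79A, a B cell gene, stood at 11.49 log2 in control MDSL and 7.31 to 8.36 in the other controls, NKG7 of cytotoxic lymphocytes at 9.98 in SKM1, and the T cell gene CD3D at 8.89 in K562 and under background in the other 3. Hybridisation spikes were brighter on the treated HL60 array, at 11.71 log2 against 10.85 to 11.10 on the other 9 arrays. Polyadenylated spikes were brighter there too, at 8.06 against 6.86 to 7.51. Mean differences are therefore also given without HL60 where they move. With 1 array per line and condition, differences within a line have no replicate check.

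Untreated cells already differed widely in metallothionein level. MT2A, the most widely expressed family member in human tissues, stood at 15.65 log2 in control HL60, 15.56 in SKM1, 14.71 in MDSL and 10.52 in K562. K562 was thus 4.19 log2 under the next lowest control, whereas the other 3 controls lay within 0.94 log2 of each other. MT1X stood at 15.13 log2 in SKM1, 15.06 in HL60, 13.15 in MDSL and 9.01 in K562. MT1G followed the order of MT2A, with 14.47 in HL60, 13.98 in SKM1, 12.12 in MDSL and 8.88 in K562. K562 was the lowest of the 4 controls for each of the 7 members.

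MT1E was the member with the widest range among the controls, at 13.10 log2 in HL60, 12.10 in SKM1, 7.15 in MDSL and 5.72 in K562. MDSL and K562 were thus both far under HL60 and SKM1 for this gene. MT1F showed the same division, with 11.89 in SKM1, 11.26 in HL60, 7.77 in MDSL and 5.66 in K562. MT1H stood at 10.20 in HL60, 9.78 in SKM1, 7.82 in MDSL and 4.96 in K562, the last under the background median of its array. MT1M had the narrowest range, 2.76 log2, from 11.01 in HL60 through 10.70 in SKM1 and 9.67 in MDSL to 8.25 in K562. Control K562 was at least 2-fold under each other control for 7 of 7 members, against 5.31% of all genes. HL60 was highest for 5 members and SKM1 for MT1F and MT1X, but these 2 lines differed by at most 0.99 log2 (MT1E) and cannot be ordered from 1 array each.

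**Figure D1:**
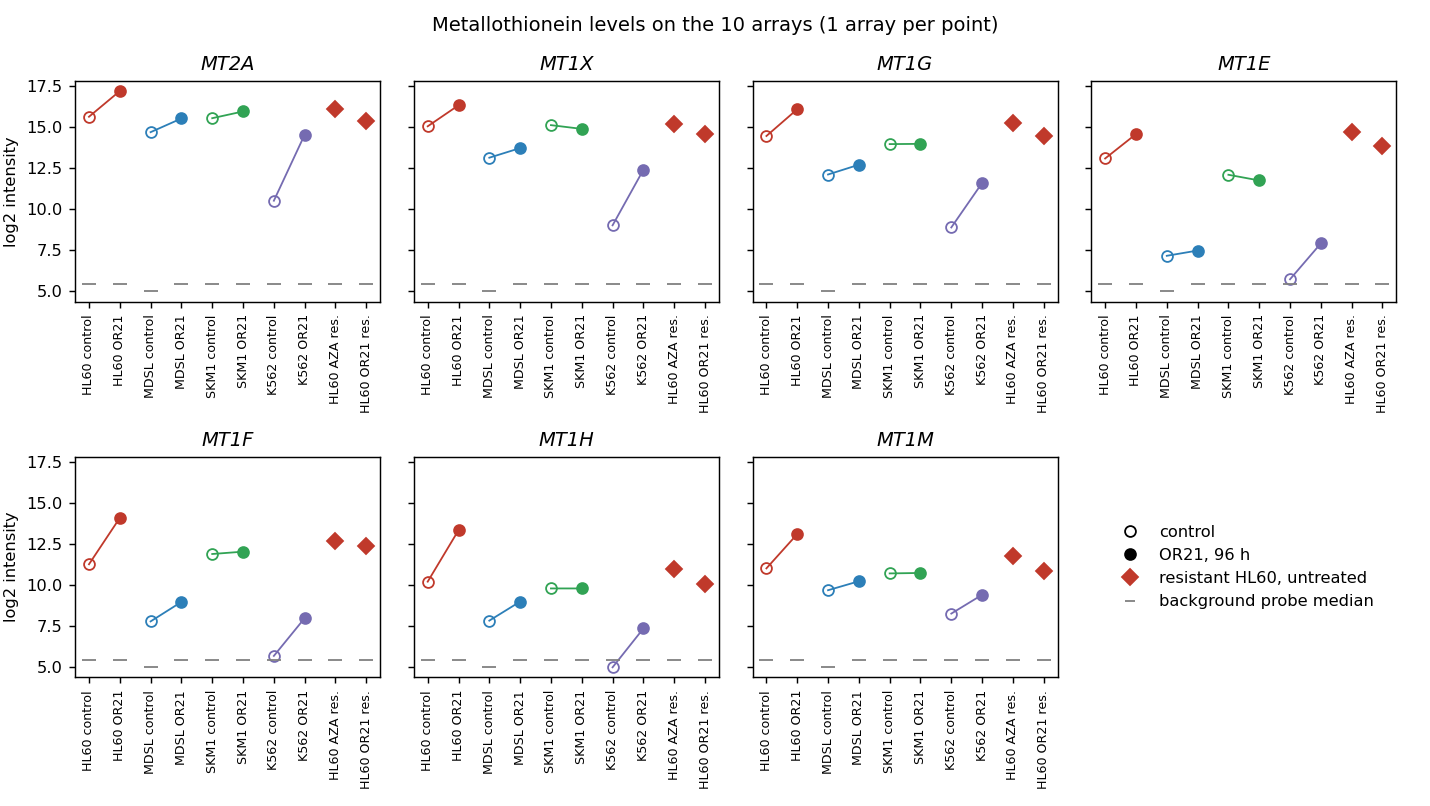
Log2 intensity of the 7 measured metallothioneins on each of the 10 arrays, 1 point per array, with lines joining control (open) and OR21-treated (filled) cells of a line, diamonds for the untreated resistant HL60 derivatives and grey dashes for the background probe median of each array. Control K562 is the lowest array in all 7 panels, and MT1H in control K562 (4.96) is the only point under the background dashes.

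With OR21, metallothioneins were higher in HL60 and K562, moderately higher in MDSL and little different in SKM1. The median difference over the 7 members was 2.37 log2 in K562, 1.64 in HL60, 0.60 in MDSL and 0.02 in SKM1, beside medians over all genes of 0.00, -0.05, -0.04 and -0.02. Members at least 2-fold higher numbered 7 of 7 in K562, 7 of 7 in HL60, 2 of 7 in MDSL and 0 of 7 in SKM1. The share of all genes at least 2-fold higher was 5.05% in K562, 10.2% in HL60, 6.62% in MDSL and 7.1% in SKM1. No member was 2-fold lower in any of the 4 lines, a size reached by 3.86% of all genes in K562, 11.1% in HL60, 4.88% in MDSL and 4.47% in SKM1. Under scaling to the hybridisation spikes, the HL60 count was 3 of 7, MT1F, MT1H and MT1M, and the median over all genes in HL60 moved to -0.81 log2.

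MT2A went from 10.52 to 14.55 log2 in K562, a difference of 4.04 or 16.4-fold. In HL60 it went from 15.65 to 17.22, a difference of 1.57, the highest MT2A level of the 10 arrays. Its differences were 0.84 in MDSL (14.71 to 15.54) and 0.41 in SKM1 (15.56 to 15.97). Over the 4 lines MT2A was higher by 1.71 ± 1.62 log2 (SD, n = 4 lines), in 4 of 4 lines, and did not pass the test (limma adjusted p = 0.193). Without K562 the mean difference was 0.94.

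MT1X had its largest difference in K562 too, 3.39 log2, from 9.01 to 12.41. In HL60 it went from 15.06 to 16.35, in MDSL from 13.15 to 13.73, and in SKM1 from 15.13 to 14.90, a difference of -0.23. The mean was 1.26 ± 1.55 log2 (SD, n = 4 lines, limma adjusted p = 0.283), and 0.55 without K562. MT1G went from 8.88 to 11.60 in K562, from 14.47 to 16.11 in HL60, from 12.12 to 12.72 in MDSL, and stood at 13.98 and 13.99 in SKM1. Its mean difference was 1.24 ± 1.19 log2 (SD, n = 4 lines, limma adjusted p = 0.207), 0.75 without K562 and 1.11 without HL60. MT2A, MT1X and MT1G therefore shared an order of the lines on the deposited scale, with K562 first and HL60 second. With spike scaling HL60 fell under MDSL for MT2A (0.81 against 0.89 log2) and MT1X (0.52 against 0.64).

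MT1E also had its largest difference in K562, 2.19 log2, from 5.72 to 7.91, and went from 13.10 to 14.59 in HL60. It was nearly level in MDSL, at 7.15 and 7.47, and lower in SKM1, from 12.10 to 11.75. Its mean difference of 0.91 ± 1.14 log2 (SD, n = 4 lines, limma adjusted p = 0.304) was the smallest of the 7. It was 0.49 without K562 and 0.72 without HL60.

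For MT1F, MT1H and MT1M the largest difference was in HL60 on the deposited scale. With spike scaling K562 came first for MT1F (2.41 log2 against 2.07 in HL60) and MT1H (2.48 against 2.38). MT1H went from 10.20 to 13.34 log2 in HL60, a difference of 3.14, and from 7.82 to 8.98 in MDSL, while both SKM1 arrays stood at 9.78. In K562 it went from 4.96, under background, to 7.34, a measured difference of 2.37, of which only 1.91 stands above the background median. With K562 at 1.91 the mean of MT1H over the 4 lines is 1.55 log2 and the K562 median over the 7 members is 2.31. MT1F went from 11.26 to 14.09 in HL60, from 5.66 to 7.97 in K562, from 7.77 to 8.96 in MDSL and from 11.89 to 12.03 in SKM1. MT1M went from 11.01 to 13.10 in HL60, from 8.25 to 9.39 in K562, from 9.67 to 10.22 in MDSL and from 10.70 to 10.73 in SKM1. The mean differences were 1.67 ± 1.38 log2 for MT1H, 1.62 ± 1.20 for MT1F and 0.95 ± 0.89 for MT1M (SD, n = 4 lines, limma adjusted p = 0.166, 0.147 and 0.214). Without HL60 they were 1.18, 1.21 and 0.57.

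**Figure D2:**
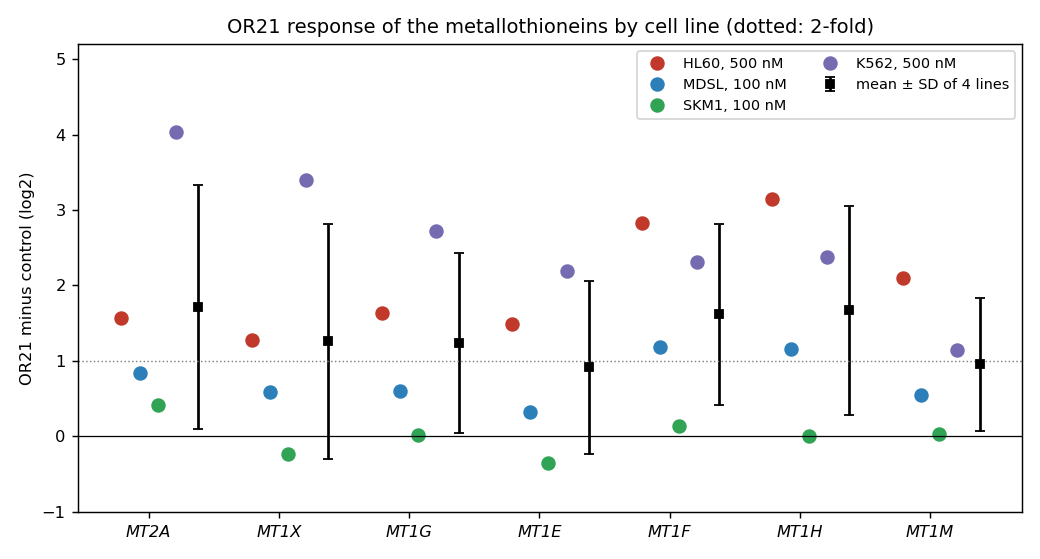
Difference between OR21-treated and control cells (log2) for each measured metallothionein, coloured by line, with black squares and bars for the mean ± SD of the 4 lines and a dotted line at 2-fold. The HL60 and K562 points lie above the dotted line for all 7 genes, and the SKM1 points lie between -0.35 and 0.41.

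Over the 4 lines, limma with the cell line as block and Benjamini-Hochberg adjustment over 17687 genes called 0 of the 7 members. It called 0.0396% of all genes as higher. At an unadjusted p under 0.05, 5 of 7 members were higher, the exceptions being MT1E and MT1X, and so were 8.98% of all genes. The spread between lines was as large as the mean difference or nearly so for each member, as the SDs above show. MT1F, MT1G, MT1M and MT2A were higher in 4 of 4 lines and the other 3 members in 3 of 4. The matching share of all genes was not counted. These counts rest on SKM1 values near 0, where 4 of 7 members were higher, but 1 of 7 with median centring.

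The lines with the largest differences were also those given the higher concentration. For 7 of 7 members both lines at 500 nM differed more than both lines at 100 nM, an arrangement seen in 17.7% of all genes. With spike scaling MT2A and MT1X did not keep this arrangement, as MDSL then differed more than HL60. The difference between the dose classes ran from 1.33 log2 for MT1M to 2.18 for MT2A and MT1H. In MT2A the mean response was 2.80 log2 at 500 nM and 0.62 at 100 nM, and in MT1H it was 2.76 and 0.58. The interaction test in limma called 0 of 7 members (adjusted p = 0.877 for each) and 0.0% of all genes. At an unadjusted p under 0.05 it gave 7 of 7 members and 2.75% of all genes as larger at 500 nM. Dose and cell line cannot be told apart here, since no line received both concentrations.

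Treated K562 approached but in most cases did not reach the levels of untreated cells of the other lines. For 5 of 7 members treated K562 was still under the lowest of the other 3 controls, by 0.15 log2 for MT2A and 0.74 for MT1X. How many of all genes were placed in this way was not counted, and each level is 1 array. The exceptions were MT1E and MT1F, where it was 0.76 and 0.20 above control MDSL. Treated HL60 was the highest of the 10 arrays for 6 of 7 members, against 11.3% of all genes.

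In the same arrays, other markers of the lines differed as well. Of the 6 monocyte markers, 6 were higher on average over the 4 lines, with medians of 0.51 log2 in K562, 2.65 in HL60, 0.69 in MDSL and 0.58 in SKM1. Their summed level was 12.2 to 17.7 log2 in the controls and 13.2 to 18.3 after OR21. ITGAM, an integrin of myeloid cells, differed by 3.92 log2 in HL60 and by 4.16 in SKM1, where metallothioneins differed little, and CD14 by 6.97 in HL60. All 4 measured erythroid markers were higher on average, with medians of 1.27 in K562, -0.05 in HL60, 2.05 in MDSL and 0.21 in SKM1. Their summed level was 7.5 to 15.1 log2 in the controls and 8.1 to 17.2 after OR21. The globin HBZ was under background on the HL60 and SKM1 arrays and in control MDSL. Of the 4 measured granulocytic markers, 1 was higher and 3 lower on average, with medians of -0.21 in K562, -2.78 in HL60, -0.04 in MDSL and -0.82 in SKM1. In HL60 4 of 4 were at least 2-fold lower, whereas MPO differed by 4.49 in MDSL. The part of such differences in the metallothionein values was not tested. These are bulk samples, so more RNA per cell and more cells of a kind cannot be told apart.

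On both sides of the gene cluster the mean differences over the 4 lines were smaller than those of the members, though single lines overlapped. The 2 nearest measured genes on the MT2A side were family members with other roles, MT3, known from brain, and MT4, known from squamous epithelium. MT3 differed by -0.18 ± 0.16 log2 (SD, n = 4 lines, limma adjusted p = 0.609) and stood at 7.13 to 7.89 log2 on the 10 arrays. MT4 was at or under background on 4 of 10 arrays and differed by 0.36 ± 0.62, or 0.15 on average with values raised to background. Its promoter window held 3 of the same core matches and 6 CpG sites. That of MT1B, a copy inside the cluster that differed by 1.47 ± 1.30 log2, held 3 and 7. Whether these letters bear on the differences was not tested. Beyond MT3 and MT4, BBS2, a gene of cilium assembly, and OGFOD1, a ribosomal protein hydroxylase, differed by -0.08 ± 0.60 and -0.57 ± 0.77. On the MT1X side the nuclear pore gene NUP93 was lower in 4 of 4 lines, at -0.63 ± 0.32 (limma adjusted p = 0.174). Over the 10 measured neighbours outside the family the median was 0.11 log2, with 6 higher and 4 lower on average and 0 past the test. CETP, a lipid transfer protein, differed by 0.72 ± 0.95 but was under background on 9 of 10 arrays, and with values raised to background its mean was 0.31. CPNE2, a calcium-binding copine, differed by 1.79 in K562, more than MT1M there (1.15), and by 0.52 ± 0.98 over the 4 lines. HERPUD1, a gene of endoplasmic reticulum stress that lies further out, differed by 1.09 in K562 and 0.65 in HL60. BBS2, CPNE2 and HERPUD1 are named here after their values were seen.

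Inside the cluster, further copies had differences like those of the members. MT1L, a transcribed pseudogene, went from 7.49 to 12.25 log2 in K562 and from 14.70 to 16.28 in HL60, and stood at 14.59 and 14.55 in SKM1. MT1B went from 9.51 to 12.72 in K562, and the pseudogene MT1IP from 3.16, under background, to 5.58, which is 0.15 above the background median of the control array. Their mean differences were 1.85 ± 2.06 for MT1L, 1.47 ± 1.30 for MT1B and 1.11 ± 0.98 for MT1IP (SD, n = 4 lines, limma adjusted p = 0.237, 0.182 and 0.193), and that of MT1IP is 0.54 with K562 raised to background. MT1HL1, a copy on another chromosome, was at or under background on 9 of 10 arrays. The 21 pairs of members had Pearson correlations over the 10 arrays of 0.74 (MT1E and MT2A) to 0.99 (MT1H and MT1M), with a median of 0.93. Without the K562 arrays these were 0.66 to 0.99. The points of a pair share the array and the line, and how far probe sets of near-identical copies catch each other's RNA was not tested.

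**Figure D3:**
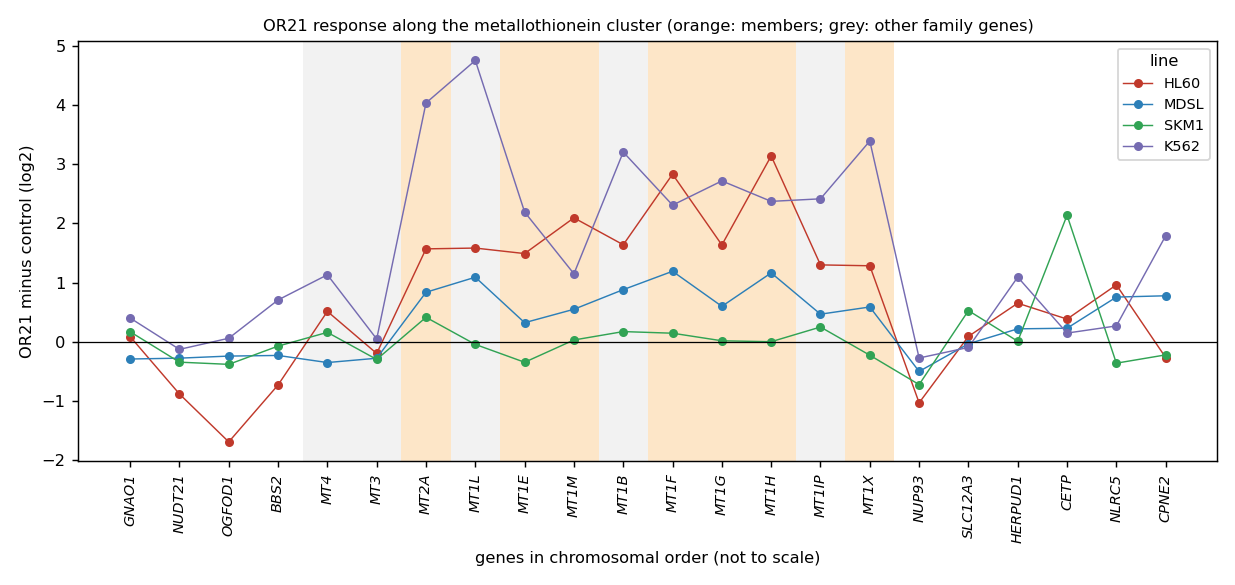
OR21-treated minus control (log2) in the 4 lines for metallothioneins (orange), other family genes (grey) and neighbouring genes (white), placed in their order along chromosome 16. Between MT2A and MT1X the HL60 and K562 points stand above 1, while NUP93, beside MT1X, is under 0 in each line.

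The AZA resistant and OR21 resistant derivatives were compared with control HL60 and with each other, as 1 untreated array each. In the AZA resistant derivative all 7 measured members were higher than in the control, as were 48.5% of all genes, with a median of 0.75 log2, and MT1E and MT1F were at least 2-fold higher, 2 of 7 against 7.04% of all genes. In the OR21 resistant derivative 3 members were higher and 4 lower, where 44.3% of all genes were higher, with a member median of -0.17, and MT1F alone was at least 2-fold higher, 1 of 7 against 7.69%. Both comparisons share the control array.

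Set against each other, the OR21 resistant derivative was lower than the AZA resistant for 7 of 7 members, where 50.4% of all genes were lower. The median difference was -0.77 log2 over the members and 0.00 over all genes. None of the 7 reached 2-fold, a size that 0.888% of all genes reached in this direction. At 1.5-fold, 6 of 7 members were lower, against 6.09% of all genes. These counts have no test, because each derivative had 1 array.

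MT1E had the largest difference from control in the AZA resistant derivative, 1.61 log2. It stood at 13.10 log2 in control HL60, 14.71 in the AZA resistant and 13.84 in the OR21 resistant derivative, and the AZA resistant value was 0.12 above that of OR21-treated HL60. For the other 6 members the AZA resistant array lay between control and treated HL60, and the share of all genes placed so was not counted. MT1F stood at 11.26, 12.66 and 12.39 and was thus above control in both derivatives, with only 0.27 log2 between them. MT1H stood at 10.20, 10.95 and 10.03, MT1M at 11.01, 11.74 and 10.84, and MT1G at 14.47, 15.24 and 14.48. In these 3 genes the AZA resistant array was the high one and the OR21 resistant array was within 0.17 log2 of control.

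MT2A stood at 15.65 log2 in control HL60, 16.11 in the AZA resistant and 15.38 in the OR21 resistant derivative. MT1X stood at 15.06, 15.21 and 14.61, so these 2 members, like MT1H and MT1M, had their lowest HL60 level in the OR21 resistant derivative. The share of all genes lowest there was not counted. Under median centring, the AZA resistant difference of MT1X was -0.02 and the OR21 resistant difference of MT1G was -0.14. The other signs in these comparisons with control held under the quantile, median and spike scalings, apart from the OR21 resistant difference of MT1G, which was -0.04 with spike scaling. All 7 differences between the derivatives kept their sign under these scalings.

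**Figure D4:**
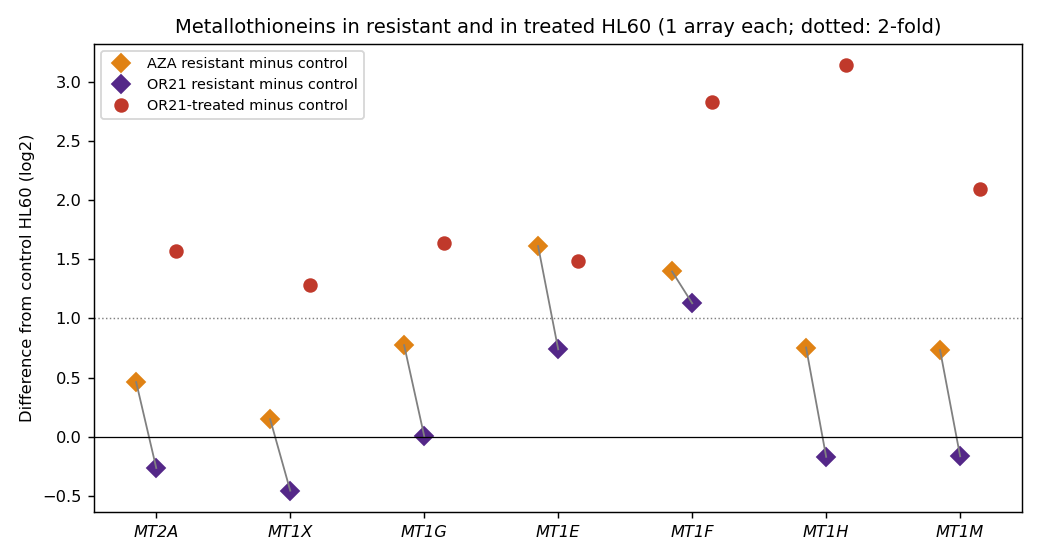
Difference from control HL60 (log2) of the AZA resistant derivative, the OR21 resistant derivative and OR21-treated HL60 for each measured metallothionein, 1 array each, with grey lines joining the derivatives and a dotted line at 2-fold. The OR21 resistant point lies under the AZA resistant point for all 7 genes, and the treated cells are highest except for MT1E.

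The other genes of metal handling differed in both directions with OR21. MTF1 was higher in treated HL60, MDSL and SKM1, by 0.80, 0.61 and 0.77 log2, and differed by -0.68 in K562, where it stood at 8.72 in control and 8.04 in treated cells. SLC30A1, the zinc exporter known as an MTF1 target, differed by -0.26 in K562, 0.97 in HL60, 0.75 in MDSL and -0.31 in SKM1. In K562, where MT2A was 16.4-fold higher, MTF1 and SLC30A1 were lower, on 1 array per condition. Whether MTF1 took part in the metallothionein differences was not tested. Of 10 zinc exporters of the SLC30 family, 9 were higher on average, 0 passed the test, and the median was 0.27 log2. Of those higher, SLC30A2 (0.13) and SLC30A8 (0.01) were under background on all 10 arrays. SLC30A10, a zinc and manganese exporter, differed by 3.42 log2 in K562 (7.51 to 10.93) and was under background in each HL60, MDSL and SKM1 array. SLC30A4, under background on all 10 arrays, differed by 0.62 ± 0.37 and SLC30A5 by 0.40 ± 0.33 (SD, n = 4 lines).

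Zinc importers of the SLC39 family were higher on average in 5 of 14 and lower in 9, with a median of -0.21 log2 and 0 past the test. SLC39A14, an importer of zinc and iron, differed by -1.46 in K562, -3.94 in HL60 (to 4.64, under background, or -3.15 against it), 1.95 in MDSL and -0.88 in SKM1. SLC39A11 differed by -0.52 ± 0.43 and SLC39A7, which releases zinc from internal stores, by -0.47 ± 0.43 (SD, n = 4 lines). Of 8 copper genes, 6 were higher and 2 lower on average, and 0 passed. CCS, the copper chaperone of superoxide dismutase, differed by 1.05 ± 0.70 and its client SOD1 by -0.54 ± 0.90, and the copper pump ATP7B, under background on 5 of 10 arrays, by 0.63 ± 0.65.

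Lists of other known metallothionein inducers were read in the same way. Of 9 measured heat shock genes, 6 were higher on average, with medians of -0.54 log2 in K562, 0.83 in HL60, 0.10 in MDSL and 0.16 in SKM1. HSPB1 differed by 0.59 ± 1.15, BAG3 by 0.40 ± 0.99 and HSPH1 by -0.68 ± 0.79 (SD, n = 4 lines). Of 8 measured targets of the oxidative stress factor NRF2, 7 were higher on average, with medians of 0.12 in K562, 0.06 in HL60, 0.70 in MDSL and 0.30 in SKM1. Those higher include OSGIN1, at 0.04, and SRXN1, under background on 5 of 10 arrays. The MDSL median was above that of the metallothioneins there (0.60). HMOX1, haem oxygenase, differed by 4.28 in HL60, from a control under background, and by 3.73 against the background median. It differed by 1.06 in MDSL and was under background on both K562 and both SKM1 arrays. The quinone reductase NQO1 differed by -1.45 in K562, 1.98 in HL60, 1.28 in MDSL and 2.26 in SKM1. The cystine transporter SLC7A11 differed by -0.42, 0.94, 0.77 and 0.74 in the same order. In HL60 the NRF2 targets GCLM, GCLC, TXNRD1 and OSGIN1 differed by -0.69, -0.37, -0.44 and -0.06, and SRXN1 by 0.17. All 5 measured glucocorticoid-responsive genes were higher on average, with medians of 1.37 in K562, 0.94 in HL60, 2.12 in MDSL and 0.28 in SKM1. The kinase SGK1 differed by 3.54 ± 2.14 log2, the phosphatase DUSP1 by 2.09 ± 0.77 and TSC22D3 by 1.31 ± 0.90 (SD, n = 4 lines, limma adjusted p = 0.122, 0.102 and 0.144), with DUSP1 under background in control HL60 and SKM1 and at 1.90 on average with these raised to background. In each of these 3 lists 0 genes passed the test over all genes, and the median over all 17687 genes was -0.02. The share of all genes higher on average was not counted.

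**Figure D5:**
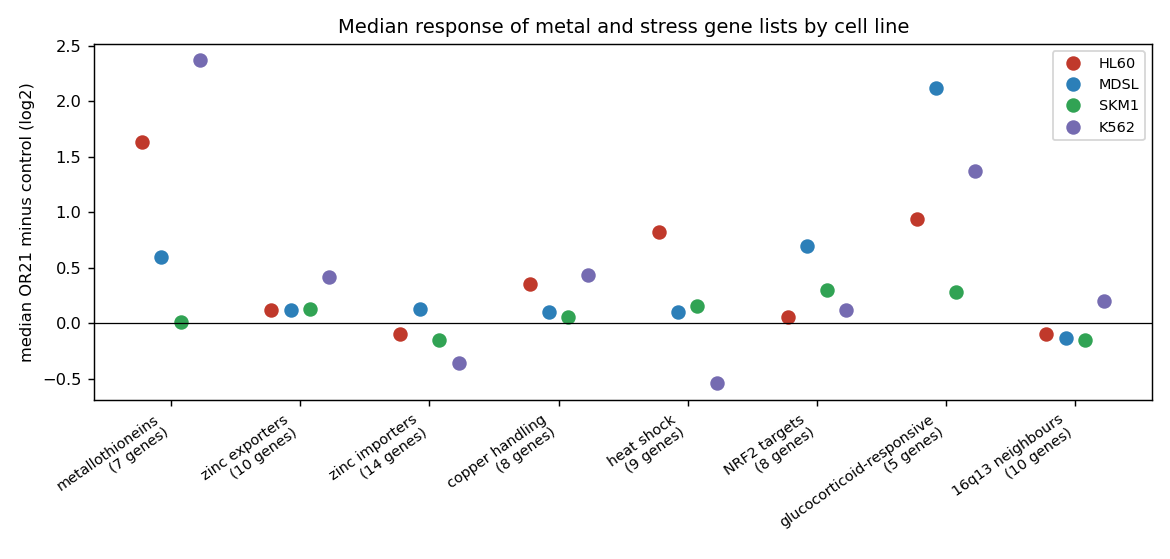
Median difference between OR21-treated and control cells (log2) in each line, for the metallothioneins, for lists of metal handling and stress genes, and for the chromosome 16 neighbours, with the number of measured genes under each name. The metallothionein medians of HL60 (1.64) and K562 (2.37) lie above those of each other list plotted in the same line, while in MDSL (0.60) the glucocorticoid-responsive genes (2.12) and NRF2 targets (0.70) lie higher.

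Across the 10 arrays, the genes outside the family whose levels followed the mean of the 7 members most closely were LYZ, TMEM170B, HVCN1, TNFRSF10D and HPS3, among 6416 genes with a range of at least 2 log2 and a highest value above the overall median. LYZ, lysozyme of monocytes and granulocytes, had Pearson r = 0.95 and stood at 17.71 log2 in control HL60, 17.03 in SKM1, 15.22 in MDSL and 12.03 in K562. HVCN1, a proton channel of phagocytes, had r = 0.94 and differed with OR21 by 0.61 in K562, 2.99 in HL60, 1.42 in MDSL and 0.63 in SKM1. HPS3, a gene of lysosome-related organelles, also had r = 0.94, yet it differed with OR21 by 0.10 to 0.64 log2. The decoy receptor TNFRSF10D and TMEM170B had r = 0.94 too. TNFRSF10D differed with OR21 by 1.30 log2 in K562, 1.55 in HL60, -0.12 in MDSL and 1.66 in SKM1. TMEM170B differed by 0.22, 1.93, -0.56 and 0.48 in the same order, and LYZ by 0.34 to 1.00. The likeness is a description over 10 arrays of 4 lines, which share line and scaling, and without the K562 arrays r lay between 0.85 (HPS3) and 0.94.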

How the data were processed

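RNA of 10 samples was hybridised to single-colour arrays after biotin labelling, per the labels. The authors deposited 1 value per probe set as a linear intensity, from 4.25 to 405294. How background and normalization were handled is not given in the sources used here. Array quartiles lay close together, so values were taken as normalized and put on the log2 scale with no offset. A platform annotation gave 1 symbol to 17709 of 24351 rows and several to 0, and 6642 rows are unnamed here. For 20 genes with more than 1 probe set, none of them a member, the brightest was kept. Columns of no sample numbered 0.

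The OR21 response was fitted with limma 3.58.1 in R 4.3.3 on 8 arrays, with the cell line as block. Tests were two-sided, and p-values were adjusted by Benjamini-Hochberg over 17687 genes, with a threshold of 0.05. The fit had 3 residual and 3.49 prior degrees of freedom. Because the line is the only replicate, a p-value sets the mean difference against the spread between lines, which may be partly technical. Limma moderates the spread of a gene with that of all genes, through the prior degrees of freedom. The number of arrays limits the precision. Differences within a line and between HL60 derivatives have 1 array per condition and no p-value.

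Members and lists were chosen with earlier results of these data known. The named genes were all members, other family genes (MT1IP was added after its values were seen), MTF1, SLC30A1, up to 3 genes per list by mean difference, the 5 genes most like the member mean, and markers and 3 neighbours added after their values were seen. Listed genes with no named probe set, such as MT1DP, MT1JP, FKBP5 and PER1, were not analysed here. The T and B cell, stromal and progenitor markers were also read as lists. Counts of list genes higher on average have no share of all genes beside them, as it was not counted. Alternatives were quantile normalization, median centring, spike scaling, an offset of 16, no block, leaving out dim genes, the mean of probe sets, other fold thresholds and leaving out each line.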

Additional observations from a re-analysis of the deposited data

How the results depend on the processing

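No member passed the test over the 4 lines under any alternative run, leaving out each line included (0 in each), and 0 passed the test between dose classes. Adjusted p for the response ran from 0.0645 (MT1F, spike scaling) to 0.996 (MT1E, no cell line block), and the sign of each mean difference held throughout. Over all genes, 7 passed, against 240 with spike scaling, 3 with an offset of 16, 1 with no cell line block, and 0 (without SKM1) to 5 (without MDSL) when a line was left out. Leaving out a line moved the mean difference of MT1F between 1.21 and 2.11 log2 and that of MT1X between 0.55 and 1.75. Spike scaling left 3 HL60 members at least 2-fold higher, and a 3-fold threshold left 4. In MDSL the count was 5 at 1.5-fold and 0 at 3-fold. In the AZA resistant derivative it was 5 and 1. In the OR21 resistant derivative it was 2 at 1.5-fold, 0 at 3-fold and 0 with median centring. Between derivatives, quantile normalization gave 1 member at least 2-fold lower and the 1.5-fold threshold 6. Values of SKM1 near 0 had no stable sign, and their median was -0.02 with quantile normalization and -0.13 with median centring. Median centring moved the median over all genes from -0.05 to -0.22 log2 in HL60. The main analysis was paired by cell line, and the labels give no replicate numbers beyond the line. Depth does not apply to arrays, and among the members only MT1H in control K562 was under the background median. MT1E and MT1F in control K562, at 5.72 and 5.66 log2, were close to that median of 5.42. An offset of 16 moved their K562 differences from 2.19 to 1.90 and from 2.31 to 2.00.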

Other observations

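Progenitor, lymphoid and stromal markers were read beside the metallothioneins. Of the 4 progenitor markers 2 were higher and 2 lower on average with OR21. The receptor FLT3 differed by -4.04 log2 in SKM1, from 10.31, and by -3.51 in MDSL, from 8.84 to 5.33, under background. The receptor KIT differed by 2.74 in K562 and -2.38 in SKM1 and went from 12.54 to 10.55 in MDSL, CD34 by 2.10 in SKM1, from a control under background, and -0.98 in MDSL, and IL3RA by 0.96 in SKM1. Of 5 measured lymphoid markers 5 were higher on average, with a median of 0.41 log2 and 0 past the test, CD3D, under background on 6 of 10 arrays, at 0.84 ± 2.22 (SD, n = 4 lines). Of 5 measured stromal and epithelial markers 4 were higher, with a median of 0.12, and EPCAM differed by 0.47 ± 0.61. Among the granulocytic markers, the proteases PRTN3, AZU1 and CTSG differed by -1.66 ± 1.60, -0.92 ± 1.09 and -0.64 ± 1.59, and MPO by 0.35 ± 2.76. In HL60 both resistant derivatives had PRTN3 lower than control, by -4.15 and -3.88 log2.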
